A study of Mus musculus with 4 samples.

Results

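Cathepsins are proteases that work mainly inside endosomes and lysosomes, and the data here are the transcript counts of 10 of their genes in nuclei of the mouse hippocampus. The genes were chosen by symbol from the feature list: Ctsa, Ctsb, Ctsc, Ctsd, Ctsf, Ctsh, Ctsk, Ctsl, Ctss and Ctsz, which are 10 of 55403 listed genes. All 10 were found, each under 1 identifier. Most cathepsins are made as inactive precursors, tagged with mannose 6-phosphate, carried to the lysosome by sorting receptors and activated there by the low pH and by other proteases. Microglia, the resident macrophages of the brain, take up and digest much material and are known for strong cathepsin expression. Cathepsins of the cysteine type are held in check by cystatins and stefins, and several members also cut antigens and the invariant chain on the way to presentation by class II molecules.

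Single-nucleus RNA sequencing was run on frozen, pooled hippocampus of 3 genotypes. WT mice gave 1 library. PS19 mice carry the transgene Tg(Prnp-MAPT*P301S)PS19Vle on a B6;C3 background, which makes a 1N4R form of mutant human tau from the prion protein promoter, and they gave 2 libraries. TG_PS19 mice gave 1 library and carry the same tau transgene together with a SORLA transgene in the Rosa26 locus, which is driven by a CMV/β-actin promoter and therefore is not restricted to 1 cell type. SORLA is a sorting receptor of the endosomal system. Littermates were compared, and the title describes the animals as aged. The labels used here give neither the age in months, the sex nor the number of animals in a pool, nor do they tell if the 2 PS19 libraries are from different pools, so that p-values measure only the spread between that pair, which may be technical. WT and TG_PS19 have no replicate, and this holds for every value below.

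The 4 libraries held 4643 to 12762 barcodes and 20064025 to 48670533 UMIs (unique molecular identifiers, each counting 1 captured transcript), and any pair of libraries shared 5 to 32 barcodes. After filtering, 4467 to 11458 nuclei a library were kept, and 11 marker-defined classes with at least 50 nuclei in every library were tested. Human MAPT had 0 UMIs in WT and 332 to 461 in the other libraries, and human SORL1 had 2217 UMIs in TG_PS19 and 0 to 7 elsewhere. The TG_PS19 library stood apart in sex: 4481 of its 8963 nuclei had Xist UMIs without Y-linked ones, against 5 to 26 nuclei in each other library. In every tested class most of the tested cathepsins were higher in PS19 replicate 1 than in replicate 2, and microglial values of replicate 2 alone are given with the results. The TG_PS19 library also held 655 of the 775 nuclei of an unnamed cluster with few UMIs, which entered no class. Its closest marker list was that of microglia, with 3 of 9 markers raised, too few for a name. Microglia numbered 587 in WT, 256 and 282 in the PS19 replicates and 409 in TG_PS19, with 990951, 624799, 792721 and 720771 UMIs in sum. All 9 microglial markers had UMIs in every library, with a summed level of 10720.0 to 14067 CPM (UMIs of a gene scaled to 1000000 UMIs of the class).

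In microglia, 6 of the 9 cathepsins that could be tested were higher in PS19 than in WT, and 7 of 9 were lower in TG_PS19 than in PS19. The 6 that rose were Ctsa, Ctsb, Ctsc, Ctsd, Ctsl and Ctsz, with fitted folds from 1.57 for Ctsl to 2.06 for Ctsb. The same 6 genes and Ctsh fell in TG_PS19 against PS19, by log2 changes between -0.54 for Ctsh and -1.55 for Ctsb. Ctss and Ctsf passed the test in neither comparison, and Ctsk was near 0 UMIs and was not tested. As background, 4.66% of all 10506 genes tested in microglia were called higher in PS19 than in WT, and 4.67% were called lower in TG_PS19 than in PS19. The median log2 fold change of the 9 cathepsins was 0.74 in the first comparison and -0.94 in the second, and that of all tested genes was 0.01 and -0.01. Without PS19 replicate 1 the first cathepsin median was 0.40. Both comparisons share the PS19 libraries and are not independent of each other.

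The calls come from edgeR's quasi-likelihood test on counts summed per library, with Benjamini-Hochberg adjustment over all genes tested and a threshold of 0.05. Its spread rests on the PS19 pair, and edgeR estimated an infinite prior, which sets the spread of each gene to the common trend. With the prior held at 10 degrees of freedom, edgeR called 4 cathepsins in PS19 against WT (all but Ctsd and Ctsl) and 6 in TG_PS19 against PS19 (all but Ctsh), where 4.13% and 4.11% of all genes were called. DESeq2 called only Ctsb in each comparison, with adjusted p-values of 0.0341 and 9.04e-05 and backgrounds of 0.723% and 0.847%. At an unadjusted p under 0.05, DESeq2 counted 4 and 6 of the 9, where 3.42% and 4.10% of all genes passed.

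**Figure D1:**
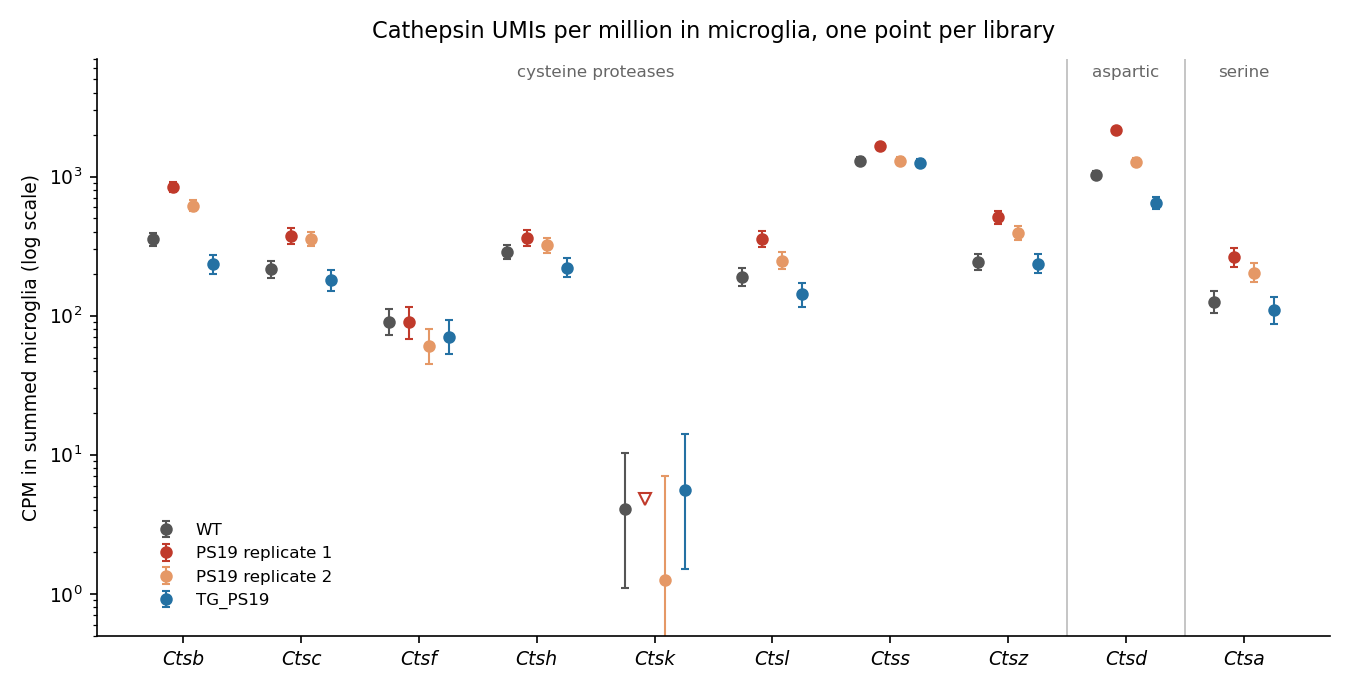
Cathepsin levels in microglia as CPM (log axis), 1 point per library, with exact 95% Poisson intervals that cover counting error only. The triangle marks PS19 replicate 1 at 0 Ctsk UMIs, drawn at the level of 3 counts. Ctsb stands at 847 and 618 CPM in the PS19 replicates against 353 in WT and 234 in TG_PS19, whereas the Ctss levels lie between 1253 and 1649 CPM.

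Cathepsin D is the aspartic protease of the family and one of the main protein-digesting enzymes of the lysosome. Its gene lies at chr7:142375911-142388038 on the minus strand (GRCm38) and shares bases with the predicted gene Gm49369 on the same strand, so that reads from the shared stretch are uncertain. In microglia Ctsd stood at 1025 CPM in WT, 2165 and 1272 CPM in PS19 replicates 1 and 2, and 647 CPM in TG_PS19. Both PS19 libraries were above the WT library and TG_PS19 was the lowest, but the replicates differed by a ratio of 1.7 and replicate 2 was only a little above WT. The fitted log2 change was 0.74 (SE 0.14, edgeR adjusted p = 7.61e-06) for PS19 against WT and -1.32 (SE 0.15, edgeR adjusted p = 4.53e-16) for TG_PS19 against PS19. Without PS19 replicate 1 the first value was 0.32 and without replicate 2 it was 1.08. With 10 prior degrees of freedom the edgeR adjusted p rose to 0.145 in the first comparison and was 0.0174 in the second. Ctsd was also the only cathepsin called in microglia between TG_PS19 and WT, at -0.58 (SE 0.17, edgeR adjusted p = 0.0477), where 0.276% of genes were called lower. Clustering at Leiden resolution 2.0, or without cathepsins among the variable genes, left the microglial counts as in the default, with 103 genes called here. Neither was thus a separate check. The Ctsd call was lost in 10 of all 14 alternative analyses. Among these were edgeR with 10 prior degrees of freedom and DESeq2, each of which called 0.0190% of genes and 0 cathepsins. At an unadjusted p under 0.05 they also counted 0 cathepsins, where 6.05% and 0.571% of all genes passed. The other 8 tested cathepsins had log2 differences between -0.51 for Ctsb and 0.05 for Ctsz in TG_PS19 against WT and were not called.

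Cathepsin B, a cysteine endopeptidase that also trims dipeptides from the end of proteins, had the largest fitted change of the 9 in both comparisons. Its gene lies at chr14:63122462-63145923 and overlaps Fdft1 on the other strand. Ctsb stood at 353 CPM in WT, 847 and 618 CPM in the PS19 replicates and 234 CPM in TG_PS19. The PS19 levels lay clear of both other libraries, and the TG_PS19 level was below that of WT. The fitted log2 change was 1.04 (SE 0.16, edgeR adjusted p = 2.51e-09) for PS19 against WT and -1.55 (SE 0.17, edgeR adjusted p = 7.08e-17) for TG_PS19 against PS19. Ctsb kept both calls in all 14 alternative analyses with a test, in which its adjusted p reached at most 0.0341 and 0.00255. The 14 include the alternative clusterings that left the microglial counts unchanged, with 967 and 1002 genes called as in the default. Between TG_PS19 and WT the log2 difference was -0.51 (SE 0.20), and its edgeR adjusted p of 0.295 did not pass.

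Cathepsin L, another cysteine endopeptidase of the lysosome, moved with a smaller change. Its gene lies at chr13:64359337-64370890 on the minus strand and overlaps the antisense gene Gm47123 and the pseudogene Gm49230. Ctsl stood at 190 CPM in WT, 355 and 249 CPM in the PS19 replicates and 142 CPM in TG_PS19. Both PS19 libraries exceeded the others, with replicate 2 nearer to WT than to replicate 1. The fitted log2 change was 0.65 (SE 0.18, edgeR adjusted p = 0.00375) and then -1.00 (SE 0.20, edgeR adjusted p = 1.72e-05), and the first of these was 0.40 without PS19 replicate 1. The adjusted p of the first comparison was 0.142 with 10 prior degrees of freedom.

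Cathepsins C, H and Z shorten proteins from their ends. Cathepsin C, or dipeptidyl peptidase 1, is known for activating serine proteases of immune cells, cathepsin H removes amino acids from the amino end, and cathepsin Z removes single residues from the carboxyl end. Their genes lie at chr7:88278085-88310888, chr9:90054152-90076089 and, on the minus strand, chr2:174427493-174439039. Ctsc overlaps the noncoding Gm26522 and Ctsz overlaps Nelfcd, both on the other strand. Ctsc stood at 216 CPM in WT, 373 and 358 CPM in the PS19 replicates and 180 CPM in TG_PS19. Its replicates differed by a ratio of 1.04, the closest agreement of the 9 genes. Ctsz stood at 243 CPM in WT, 509 and 392 CPM in the PS19 replicates and 237 CPM in TG_PS19. For both genes the PS19 pair did not overlap with the other libraries, and WT and TG_PS19 lay close together. The PS19 against WT changes were 0.76 (SE 0.17, edgeR adjusted p = 2.40e-04) for Ctsc and 0.88 (SE 0.16, edgeR adjusted p = 4.19e-06) for Ctsz. The TG_PS19 against PS19 changes were -0.94 (SE 0.18, edgeR adjusted p = 1.75e-05) and -0.83 (SE 0.17, edgeR adjusted p = 5.71e-05). Ctsh behaved differently. It stood at 289 CPM in WT, 363 and 322 CPM in the PS19 replicates and 222 CPM in TG_PS19, so that the order of the libraries was the same but the distances were smaller. Its PS19 against WT difference of 0.24 (SE 0.16, edgeR adjusted p = 0.469) did not pass, and its fall of -0.54 (SE 0.18, edgeR adjusted p = 0.0304) in TG_PS19 lost its call with 10 prior degrees of freedom (adjusted p = 0.136).

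Cathepsin A is a serine carboxypeptidase and at the same time the protein that shields the lysosomal enzymes neuraminidase 1 and beta-galactosidase in a complex. Ctsa lies at chr2:164832873-164841032 and overlaps Neurl2 and Pltp on the other strand. It stood at 126 CPM in WT, 264 and 204 CPM in the PS19 replicates and 110 CPM in TG_PS19. The PS19 libraries were the 2 highest, and WT and TG_PS19 were close to each other. The log2 change was 0.88 (SE 0.19, edgeR adjusted p = 1.71e-04) for PS19 against WT and -1.00 (SE 0.21, edgeR adjusted p = 8.72e-05) for TG_PS19 against PS19. Glb1, which encodes beta-galactosidase, also rose by 1.01 (SE 0.31, edgeR adjusted p = 0.0158) and fell by 1.11 on the log2 scale (edgeR adjusted p = 0.0171). Neu1, which encodes neuraminidase 1, gave 0.23 and -1.05 and passed neither test (edgeR adjusted p = 0.812 and 0.135).

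Cathepsin S is the cysteine protease that completes the removal of the invariant chain in antigen-presenting cells and stays active at neutral pH. Ctss lies at chr3:95526786-95556403 and overlaps the pseudogene Hmgb1-ps5, and Ctsk lies 17423 bases before it on the same strand at chr3:95499256-95509362. Ctss stood at 1301 CPM in WT, 1649 and 1297 CPM in the PS19 replicates and 1253 CPM in TG_PS19. The WT level lay between those of the PS19 replicates, and the levels of WT, PS19 replicate 2 and TG_PS19 had overlapping counting intervals. The log2 differences were 0.18 (SE 0.14, edgeR adjusted p = 0.557) and -0.15 (SE 0.14, edgeR adjusted p = 0.632). Ctsf, at chr19:4855130-4860918, encodes a cysteine endopeptidase that has also been tied to invariant chain processing. It stood at 90.8 CPM in WT, 89.6 and 60.6 CPM in the PS19 pair and 70.8 CPM in TG_PS19, with WT just above the pair and TG_PS19 inside it. Its log2 differences were -0.30 (SE 0.25, edgeR adjusted p = 0.603) and 0.02 (SE 0.28, edgeR adjusted p = 0.984). Cathepsin K is the collagen-degrading enzyme best known from osteoclasts. Ctsk had 4 UMIs in WT microglia, 0 and 1 in the PS19 replicates and 4 in TG_PS19, and the 0 allows up to 4.8 CPM.

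The share of microglia with at least 1 UMI gave the same picture as the sums after every nucleus was thinned to 1000 UMIs, which removes differences in depth. A Ctsb UMI was kept by 29.8% of microglia from WT, by 51.8% and 41.6% from the PS19 replicates and by 20.9% from TG_PS19. Without thinning the shares were 40.5%, 74.6%, 71.6% and 31.8% at median depths of 1604.0, 2201.0, 2573.5 and 1642.0 UMIs, and 30, 3, 1 and 16 shallower nuclei were left out of the thinned shares. For Ctss the thinned shares were 70.4%, 75.5%, 67.6% and 67.7%. In neurons, thinned in the same way, Ctss UMIs were found in 0.826% to 1.44% of nuclei and Ctsb UMIs in 4.55% to 7.84%. Thinned Ctsb shares were 6.04% to 14.2% in astrocytes and 5.4% to 12.8% in oligodendrocytes. Those of Ctss were 1.62% to 1.94% and 1.78% to 2.95%. The microglial shares of both genes were above those of all these cells, which serve here as the background.

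Markers of other myeloid cells were few in the microglial sums. The 7 border macrophage markers summed to 201 CPM in WT, 144 and 146 CPM in the PS19 pair and 194 CPM in TG_PS19, with 2 to 4 of the 7 found, and Cd163 and Lyve1 were at 0 in every library. The 6 monocyte and neutrophil markers summed to 17.7 to 25.2 CPM, with S100a8, S100a9 and Retnlg at 0 in every library. With the nuclei that had any macrophage marker UMI left out (24.9% to 29.1% of microglia), 6 cathepsins were called higher in PS19 than in WT and 7 lower in TG_PS19 than in PS19, where 3.29% and 3.18% of all genes were called in these directions. In TG_PS19, Ctsb stood at 222 CPM in the 230 microglia with Xist UMIs and at 255 CPM in the 81 with Y-linked UMIs, and Ctsd at 595 and 704 CPM. With the Y-linked nuclei alone standing for TG_PS19, 6 of 9 cathepsins were called lower than in PS19, with Ctsh the one lost, against 2.07% of all genes. Markers of oligodendrocytes summed to 995 CPM in WT microglia, 597 and 700 CPM in the PS19 pair and 948 CPM in TG_PS19, all 7 found in each. Astrocyte markers (697, 597, 453 and 691 CPM in the same order) and CA1 markers (480, 362, 410 and 509 CPM) were also lowest in PS19. So were those of dentate granule, inhibitory and Cajal-Retzius neurons and choroid plexus epithelium. Markers of other excitatory neurons, oligodendrocyte precursors, endothelial, mural and ependymal cells, fibroblasts and T cells had no such order. The part of such RNA of other cell types in the cathepsin values was not tested.

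Sub-clustering of the microglia, done without any gene of the cathepsin family, gave 6 groups that were unevenly spread over the libraries. Sub-cluster 2 was led by Bcar3, Clec7a and Fam20c and had 7 of 12 genes of the disease-associated microglia list raised. It held 40.6% and 41.5% of PS19 microglia, 1.87% in WT and 0.489% in TG_PS19. Sub-cluster 1, led by neuronal genes such as Trpm3 and Magi2, held 75.5% of WT, 33.3% of TG_PS19 and 3.91% and 2.84% of PS19 microglia. Sub-cluster 0, led by Xist, was the 1 group with at least 100 nuclei in every library (124 in WT, 107 and 119 in PS19, 265 in TG_PS19). Xist was barred from the clustering genes, and 265 of the 615 nuclei came from TG_PS19, the library with many Xist nuclei. Its lead thus does not name a state shared by the libraries. The values that follow are descriptions within these groups, with no test.

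Within PS19, Ctsb was the cathepsin whose level differed most between sub-clusters 2 and 0. It stood at 1132 CPM in sub-cluster 2 and 566 CPM in sub-cluster 0 of replicate 1, and at 830 and 426 CPM in replicate 2, a ratio of 2 and 1.95. The counting intervals of the 2 groups did not overlap in either replicate. Ctsz followed with ratios of 1.32 and 1.59, Ctsa with 1.27 and 1.35 and Ctsd with 1.16 and 1.24. Ctsc stood at about the same level in both groups (ratios 1.01 and 1.09), and Ctsh and Ctsl were on either side of 1 in the replicates. Ctss went the other way: it stood at 2085 and 1456 CPM in sub-cluster 0 and at 1423 and 1216 CPM in sub-cluster 2, ratios of 0.682 and 0.835. Ctsf had ratios of 0.58 and 0.594 from 18 to 28 UMIs a group. A high Ctsb level was not particular to sub-cluster 2. Sub-cluster 3, led by Cxcl10 and Ifi204 with 6 of 12 disease-associated genes raised, held Ctsb at 983 and 745 CPM in PS19. Its 21 and 23 PS19 nuclei gave counting intervals that overlapped those of sub-cluster 2. Sub-cluster 4, led by Cd74, held Ctsb at 717 and 421 CPM from 14 nuclei a replicate, the second close to sub-cluster 0.

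Within sub-cluster 0 alone, PS19 levels were still the highest for Ctsb, Ctsc, Ctsd, Ctsl, Ctsz and Ctsa. Ctsb stood there at 351 CPM in WT (95% counting interval 276 to 440), 566 and 426 CPM in the PS19 pair and 233 CPM in TG_PS19 (191 to 282). PS19 replicate 1 lay above the WT interval, and replicate 2 lay inside it. Ctsd stood at 992 CPM in WT, 2007 and 1143 CPM in the PS19 pair and 661 CPM in TG_PS19. Ctsl stood at 192, 374, 231 and 129 CPM in the same order. TG_PS19 was thus the lowest library for each of these genes in this group too. Sub-cluster 1 had few PS19 nuclei and no such uniform order. There PS19 replicate 2, with 8 nuclei, stood below WT for Ctsb (333 against 345 CPM), Ctsd (856 against 1013 CPM) and Ctsl (119 against 191 CPM). Replicate 1, with 10 nuclei, stood above WT for each of them, at 571, 1143 and 298 CPM. All these PS19 counting intervals overlapped those of WT.

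**Figure D2:**
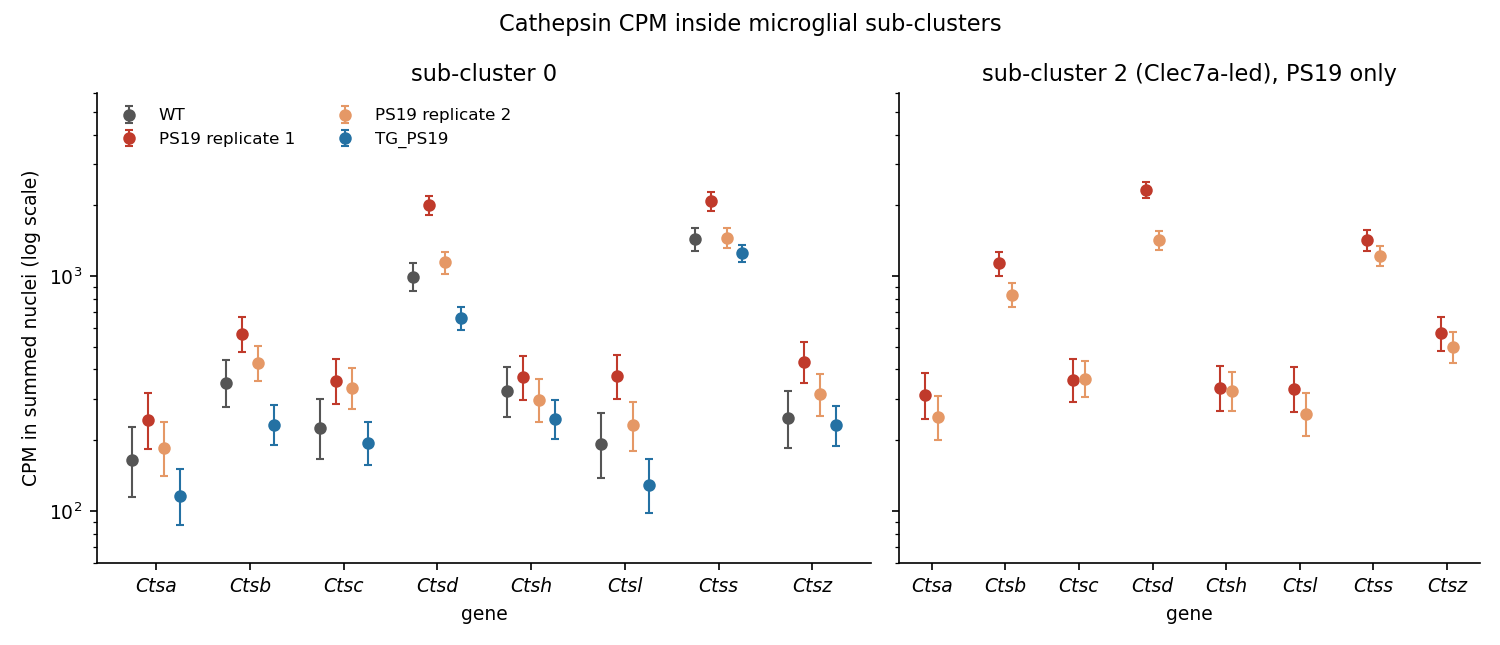
CPM (log axis) of 8 cathepsins inside microglial sub-cluster 0 for all libraries, and inside sub-cluster 2 for the PS19 replicates, which held nearly all of its nuclei. Points are library sums and bars are exact 95% Poisson intervals. Ctsb stands higher in sub-cluster 2 than in sub-cluster 0 of the same library (1132 against 566 CPM in replicate 1), and Ctss stands lower (1423 against 2085 CPM).

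Other genes of the pathway were counted from lists of inhibitors, partners, sorting genes and transcription factors. Of 13 further cathepsin genes, 11 had at most 2 UMIs in any library's microglia. Ctse, an intracellular aspartic protease, had 9 UMIs in WT, 55 and 55 in PS19 and 4 in TG_PS19, and was called in both comparisons at 3.08 (SE 0.41, edgeR adjusted p = 8.33e-12) and -3.69 (SE 0.51, edgeR adjusted p = 4.39e-11). Ctso was not called. The PS19 levels of Ctse, 88 and 69.4 CPM, were well above the 9.08 CPM of WT and the 5.55 CPM of TG_PS19.

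Of 8 cystatins and stefins, 3 could be tested in microglia, and 2 were called in each comparison, in opposite directions. Cst3, the secreted inhibitor cystatin C, stood at 7462 CPM in WT, 3961 and 2943 CPM in the PS19 pair and 8004 CPM in TG_PS19. It fell by 1.11 on the log2 scale in PS19 (SE 0.12, edgeR adjusted p = 2.08e-17) and was higher in TG_PS19 than in PS19 by 1.30 (SE 0.12, edgeR adjusted p = 1.11e-23). Outside microglia too, Cst3 was lower in PS19 than in WT. Its log2 differences ran from -0.30 in astrocytes, which did not pass (edgeR adjusted p = 0.0824), to -1.64 in oligodendrocytes (edgeR adjusted p = 1.15e-35), and all 11 classes but astrocytes passed. Cst7, or cystatin F, which acts on cathepsin C and related enzymes inside the cell, went with the cathepsins: it had 2 UMIs in WT, 28 and 15 in PS19 and 0 in TG_PS19 and was called in both comparisons (edgeR adjusted p = 2.54e-04 and 7.26e-05). Cstb, with 2 to 14 UMIs a library, was not called. Of 5 serpins that inhibit proteases of this kind, only Serpinb6a could be tested in microglia, and it was not called.

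Among 6 partner genes, 1 was called higher in PS19 than in WT and 3 were called lower in TG_PS19 than in PS19. Beside Glb1 these were Psap, the precursor of the saposins and a binding partner of procathepsin D, and Grn, which encodes progranulin. Psap stood at 554 CPM in WT, 770 and 541 CPM in the PS19 pair and 343 CPM in TG_PS19, and its change of -0.84 (SE 0.16, edgeR adjusted p = 1.15e-05) was found in TG_PS19 against PS19 only. Grn gave 0.42 (edgeR adjusted p = 0.133) and -0.92 (SE 0.20, edgeR adjusted p = 1.50e-04). Lgmn, the legumain protease that cuts several cathepsins into their 2-chain form, had the highest level of the list at 870 to 1201 CPM and was not called in any comparison.

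Of 8 genes of mannose 6-phosphate tagging and sorting, 7 could be tested. Gnptab, a subunit of the enzyme that makes the tag, rose from 29.3 CPM in WT to 72 and 88.3 CPM in PS19 and stood at 27.7 CPM in TG_PS19 (1.46 and -1.46, edgeR adjusted p = 1.32e-04 and 7.97e-04). Lrp1, an endocytic receptor, was lower in PS19 by -0.44 (SE 0.15, edgeR adjusted p = 0.0422). M6pr, Gnptg, Nagpa, Sort1 and mouse Sorl1 were not called in any comparison. Of the 4 MiT/TFE transcription factors, which switch on lysosomal genes, Mitf rose by 1.23 (SE 0.15, edgeR adjusted p = 5.09e-13) and was lower by -0.92 (SE 0.16, edgeR adjusted p = 2.70e-07) in TG_PS19. Tfeb and Tfe3 were not called, at 0.41 and 0.37 in PS19 against WT (edgeR adjusted p = 0.286 and 0.485), and Tfec had at most 2 UMIs.

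Genes of class II antigen processing, which cathepsins S, L and F serve, were also called in both comparisons. Of 5, 4 were higher in PS19 than in WT and lower in TG_PS19 than in PS19. Cd74, the invariant chain, had 26 UMIs in WT, 188 and 158 in PS19 and 4 in TG_PS19, with log2 changes of 3.23 (SE 0.27, edgeR adjusted p = 2.86e-30) and -5.36 (SE 0.40, edgeR adjusted p = 1.10e-36). H2-Aa, H2-Ab1 and H2-Eb1 were called too, and H2-DMa was not. Of the 12 genes of the disease-associated microglia list, 11 were called higher and 10 lower. In the sub-cluster led by Cd74 and class II genes, 14 nuclei in each PS19 replicate, Ctsh stood at 619 and 468 CPM from 25 and 20 UMIs, and at 370 and 297 CPM in sub-cluster 0. The Ctsh counting intervals of the 2 groups overlapped in both replicates. Ctss was lower there than in sub-cluster 0, at 1212 and 1053 CPM against 2085 and 1456 CPM. Ctsl stood at 445 and 398 CPM against 374 and 231 CPM, with overlapping intervals, and Ctsf had 3 and 1 UMIs.

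The promoters of the cathepsins were searched for the E-box CACGTG, the core of the sequence that MiT/TFE factors bind in lysosomal genes. RefSeq windows (build GRCm38.p6) of 300 bases, from 250 before to 50 after a start site, were at hand for 8 of the 10 genes, Ctsa having 2 of them. CACGTG, which reads the same on both strands, was found in windows of 4 of these 8 genes: Ctsa, Ctsd, Ctsl and Ctsf. Among all 27025 genes with a window, 8.09% had it. Both Ctsa sites lie in the second of its windows, whose start site is 901 bases downstream of the first, and the first window held none. The longer TCACGTGA, which contains it and also reads the same on both strands, was found for Ctsa (in that second window) and Ctsd, against 1.12% of all genes. A site of each gene is shown 5′ to 3′ on the gene's strand with the E-box in capitals, since these are the letters shared between genes that moved together and Ctsf, which did not pass a test.
Ctsa chr2:164833749-164833778: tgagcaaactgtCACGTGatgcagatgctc
Ctsa chr2:164833766-164833795: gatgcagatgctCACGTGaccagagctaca
Ctsd chr7:142387908-142387937: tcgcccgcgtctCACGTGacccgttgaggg
Ctsl chr13:64370739-64370768: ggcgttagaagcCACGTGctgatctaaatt
Ctsf chr19:4855074-4855103: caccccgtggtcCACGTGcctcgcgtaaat
Counting the start site as 0, the first capital stood at position -12 and 5 in the 2 Ctsa sites, -98 in Ctsd, -236 in Ctsl and -79 in Ctsf. Ctsd had a further CACGTG at -245. These positions count from RefSeq start sites, whereas the gene spans given above are from GENCODE. By the GENCODE spans, the Ctsl site, the Ctsd site at -98 and both Ctsa sites lie inside their genes. The windows of Ctsc and Ctsz, which rose and fell with the others, held no CACGTG. These matches describe the letters of the windows and show no binding.

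Across the 11 tested classes, every cathepsin but Ctsk had its highest mean level in microglia. The classes were built from expression that included these genes, so that the levels are descriptions without a test, and each gene is compared only with itself. The mean of the 4 libraries for Ctss was 1375 CPM in microglia and at most 32 CPM in any other class. For Ctsd it was 1277 CPM against at most 92.2 CPM, with mural cells and astrocytes next, and their levels overlapped between libraries. For Ctsb it was 513 CPM in microglia and between 48.7 and 103 CPM elsewhere, so that this gene was found in all classes. Ctsz and Ctsa had means of 345 and 176 CPM in microglia, and at most 56.7 and 79.8 CPM elsewhere. Ctsf, with 77.9 CPM in microglia, was nearly as high in astrocytes, where it ranged from 42.7 to 72.2 CPM between libraries and overlapped with the microglial range.

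Ctsc and Ctsh shared a second site of expression. In endothelial cells Ctsc stood at 145 CPM in WT, 192 and 212 CPM in the PS19 pair and 134 CPM in TG_PS19, and Ctsh at 129, 151, 107 and 183 CPM. In every other tested class but fibroblasts, both genes had means of at most 11.1 CPM. In fibroblasts the means were 41.5 CPM for Ctsc and 82.1 CPM for Ctsh. Ctsl reached its second highest mean in fibroblasts, with 190 CPM in WT, 188 and 152 CPM in the PS19 pair and 187 CPM in TG_PS19, a range inside that of microglia. Ctsk was highest in fibroblasts at 34.9, 35.6, 30.4 and 22.5 CPM, followed by mural cells and oligodendrocytes with means of 12 and 10.4 CPM, and did not exceed a mean of 2.84 CPM in the other classes. An unnamed cluster led by Mrc1 and Cd74, with 47 nuclei over the libraries, held Ctsc at 862 CPM (95% counting interval 679 to 1079) and Ctsb at 658 CPM (499 to 850) and had 0 Ctsk UMIs, which allows up to 34 CPM over these nuclei. In the 655 TG_PS19 nuclei of the unnamed cluster with few UMIs, Ctsb stood at 138 CPM, Ctsd at 198 CPM and Ctsl at 262 CPM. What leaving them out does to the TG_PS19 microglial values was not tested.

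**Figure D3:**
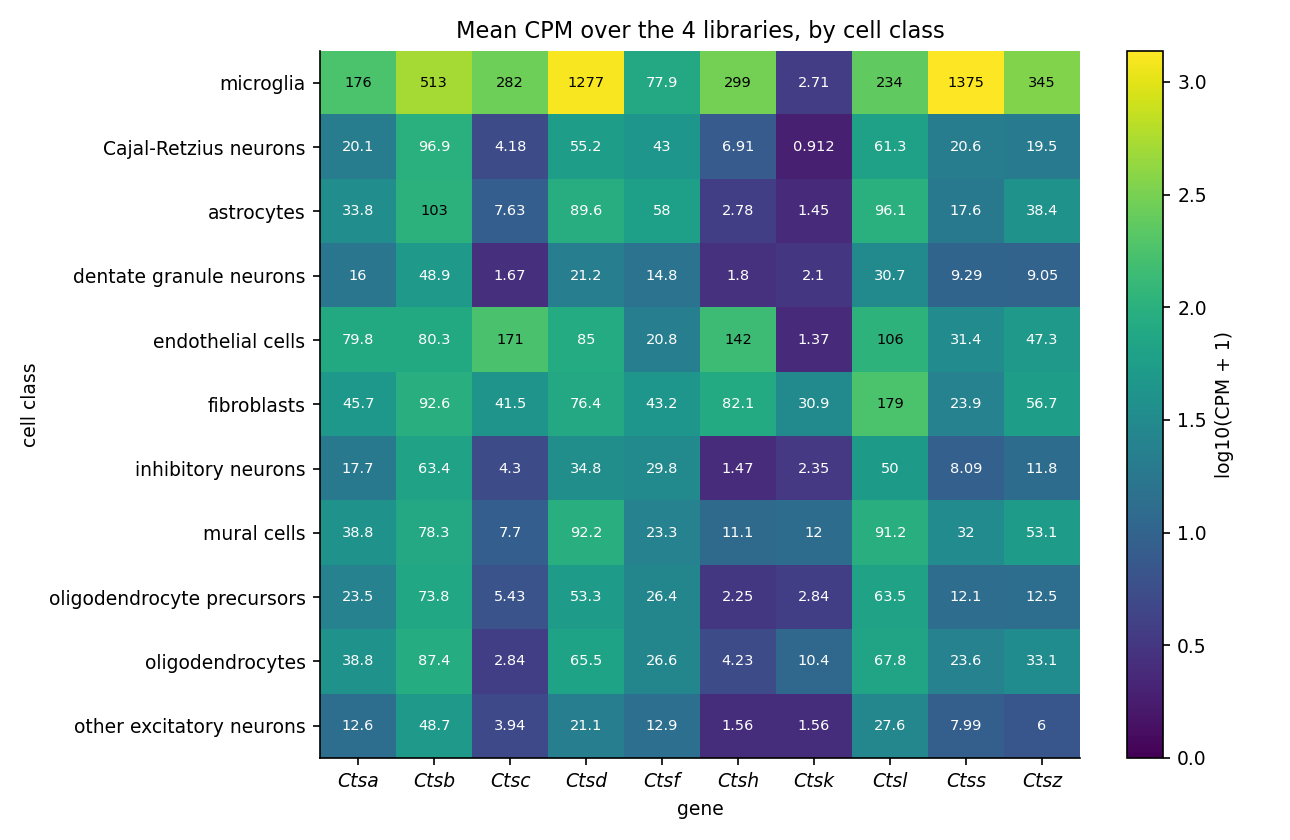
Mean level of each cathepsin over the 4 libraries in the 11 tested classes, as CPM in the cells and as log10(CPM + 1) in colour. Columns should be read downward, 1 gene at a time. Microglia have the highest value in every column but that of Ctsk, which peaks in fibroblasts at 30.9 CPM, and Ctsc and Ctsh show a second high value in endothelial cells (171 and 142 CPM).

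For 9 of the 10 cathepsins, the genes whose levels followed them most closely were named by correlation of log2(CPM + 1) over the 44 sums of class and library, among 16069 genes. The points share libraries and their large differences are those between classes, so that the values are descriptions. Ctsb was closest to Ctsd (Pearson r = 0.942) and Psap (0.937). Ctsd was closest to C1qa (0.959) and C1qc (0.954), which encode complement subunits made by microglia. Ctsc and Ctsh shared Anxa3 as their closest gene (0.924 and 0.941). Ctsz was closest to Ctsd (0.925), Ctsa to Grn (0.908), Ctsf to Psap (0.858) and Ctsl to Tnks2 (0.899). Ctsk had the weakest best match, E130308A19Rik at 0.818.

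Outside microglia, 81 combinations of class and cathepsin could be tested. PS19 against WT gave 0 calls higher and 1 lower, Ctsl in oligodendrocytes at -0.42 (SE 0.14, edgeR adjusted p = 0.0391), where 1.48% of tests over all genes in these classes were called lower. TG_PS19 against PS19 gave 11 lower, against a background of 1.77%, and TG_PS19 against WT gave 6 lower, against 0.747%. Ctsb and Ctsd made up 9 of the 11: Ctsb in astrocytes, oligodendrocytes, oligodendrocyte precursors, dentate granule neurons and other excitatory neurons, and Ctsd in the same classes without the precursors. The other 2 were Ctsc in astrocytes and Ctsa in oligodendrocytes. With 10 prior degrees of freedom, edgeR called 0 of the 81 in each comparison, against backgrounds of 0.782%, 1.68% and 0.309%. At an unadjusted p under 0.05 it counted 4, 18 and 14 of the 81, where 8.20%, 11.3% and 8.38% of all tests passed. DESeq2 also called 0, against backgrounds of 0.266%, 0.565% and 0.124%. At an unadjusted p under 0.05 it counted 0, 2 and 1, where 1.69%, 2.78% and 1.37% of all tests passed.

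The astrocyte values show what these calls rest on. Ctsb stood at 96 CPM in WT, 161 and 97 CPM in PS19 replicates 1 and 2, and 57.7 CPM in TG_PS19. Ctsd stood at 89.9 CPM, 133 and 78 CPM, and 57.5 CPM. For both genes replicate 2 was close to or below WT, replicate 1 was far above it, and TG_PS19 was below both replicates. The log2 changes in TG_PS19 against PS19 were -0.96 (SE 0.16, edgeR adjusted p = 9.68e-08) for Ctsb and -0.67 (SE 0.16, edgeR adjusted p = 6.43e-04) for Ctsd, with adjusted p-values of 0.0529 and 0.196 at 10 prior degrees of freedom. In oligodendrocytes Ctsb stood at 88.5 CPM in WT, 126 and 79.4 CPM in the PS19 pair and 55.9 CPM in TG_PS19, so that WT lay between the replicates and TG_PS19 was the lowest. In dentate granule neurons Ctsd stood at 23.1 CPM in WT, 29.9 and 20.3 CPM in the PS19 pair and 11.6 CPM in TG_PS19, and was lower in TG_PS19 than in PS19 by -1.00 (SE 0.21, edgeR adjusted p = 5.86e-05) and lower than the WT level by -0.88 (SE 0.22, edgeR adjusted p = 0.00203). TG_PS19 had the lowest level in each of these 4 sets of values. The sets were taken from the calls lower in TG_PS19 than in PS19, so that its place below PS19 follows from that choice.

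The excess of PS19 replicate 1 over replicate 2 ran through the family. The median log2 ratio of the 2 replicates was 0.37 over the 9 tested cathepsins in microglia, all 9 of which were higher in replicate 1, and lay between 0.12 in endothelial cells and 0.67 in other excitatory neurons. Over all tested genes the median ratio lay between -0.01 and 0.00 in every class. In dentate granule neurons 10 of 10 cathepsins were higher in replicate 1, and in oligodendrocytes 9 of 10. In microglia, nevertheless, PS19 replicate 2 alone was above WT by 0.70 for Ctsa, 0.81 for Ctsb, 0.74 for Ctsc, 0.32 for Ctsd, 0.40 for Ctsl and 0.70 for Ctsz on the log2 scale, values with no test. In the 10 other classes the median cathepsin difference between PS19 and WT was -0.06 over the 81 combinations, with 38 above 0 and 43 below. For TG_PS19 against PS19 their median was -0.40, with 11 above 0 and 70 below. For TG_PS19 against WT it was -0.44, with 8 above 0 and 73 below. Over all tested genes of a class these 2 medians lay between -0.02 and 0.01. The lower cathepsin values of TG_PS19 were thus not confined to microglia, though the combinations share the same libraries. Whether the change differed between microglia and any other class was not tested.

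**Figure D4:**
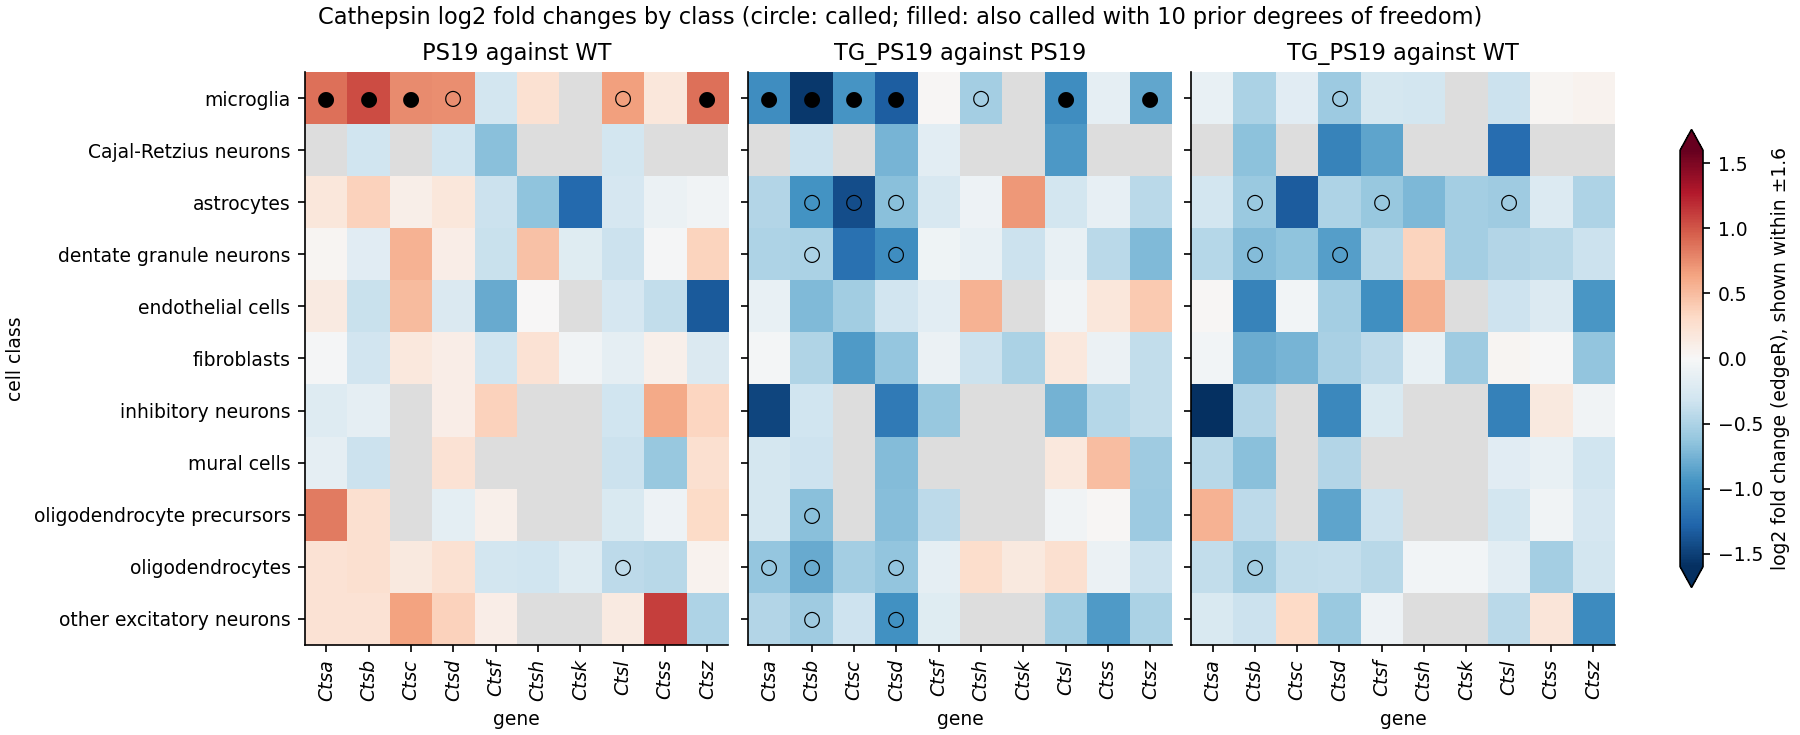
Log2 fold changes (edgeR) of the 10 cathepsins in the 11 classes for the 3 comparisons, with untested combinations in grey. Circles mark calls at an adjusted p under 0.05, and filled circles those that were also called with 10 prior degrees of freedom. Filled circles stand only in the microglia row, 4 of them in PS19 against WT and 6 in TG_PS19 against PS19, and the open circles outside microglia are all on lower values.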

How the data were processed

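The deposited matrices hold UMI counts per gene and nucleus, which the authors obtained from Cell Ranger 7.1.0 on GRCm38, per the submitters' processing notes. Libraries held 20064025 to 48670533 UMIs. Barcodes below 500 UMIs or 300 genes, or above 5% mitochondrial UMIs, were dropped. Doublets (3.7% to 10.2% of barcodes) were removed by a rewritten Scrublet score. Clusters (2000 variable genes, 30 components, 15 neighbours, Leiden 1.0, leidenalg 0.10.2) were named from 17 marker lists. An Sfta3-ps-led cluster was left unnamed and CA1-like clusters were merged with other excitatory neurons after the clusters had been seen. Class names mean resemblance by markers. Counts were summed per class and library and fitted with edgeR 4.0.16 (limma 3.58.1, R 4.3.3; low-count filter, TMM scaling, two-sided quasi-likelihood F-test, 1 residual degree of freedom), tested on simulated data. DESeq2 1.42.0 was an alternative. WT and TG_PS19 were assumed to vary like the PS19 pair. Intervals are exact 95% Poisson or binomial, and a count of 0 is given the limit of 3 counts; both hold only counting error. All 10 genes, the pathway genes called in microglia or highest in their list, and the 3 genes closest in pattern were to be named. The members and lists were chosen with earlier results of these data known. Gene positions are from GENCODE M21.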

Additional observations from a re-analysis of the deposited data

How the results depend on the processing

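No paired analysis was possible because only PS19 has numbered replicates. Leaving out a PS19 replicate leaves no residual degrees of freedom, so that only log2 values were computed: the microglial median ranged from 0.40 to 0.91 in PS19 against WT, from -1.02 to -0.73 in TG_PS19 against PS19 and from -0.28 to -0.27 in TG_PS19 against WT. The count of cathepsins called in microglia was 6 and 7 with the default analysis and at least 4 and 6 in all alternatives but DESeq2, which gave 1 and 1. The single call in TG_PS19 against WT became 0 with DESeq2, relative log expression scaling, no low-count filter, a robust prior, adjusted residual degrees of freedom, doublets kept, thinning to 1000 UMIs, Y-linked TG_PS19 nuclei alone, nuclei with macrophage markers left out, and 10 prior degrees of freedom (the last was added after seeing the data). Outside microglia, 1 call in PS19 against WT became 0 with DESeq2, no filter, a filter at a mean of 20 CPM, cathepsins left out of the variable genes, thinning, Y-linked nuclei alone and 10 prior degrees of freedom. The count of 11 calls in TG_PS19 against PS19 became 0 with DESeq2 and with 10 prior degrees of freedom, and 5 each with the 20 CPM filter, thinning (4 of them among the 11) and Y-linked nuclei alone. The count of 6 in TG_PS19 against WT became 0 with DESeq2 and with 10 prior degrees of freedom, 1 with thinning, and 3 each with no filter, doublets kept and Y-linked nuclei alone. The median in TG_PS19 against PS19 was -1.15 with doublets kept. That in TG_PS19 against WT was -0.36 with library totals, -0.23 without the filter, -0.29 with the 20 CPM filter, -0.24 with doublets kept, -0.26 with thinning, -0.42 with Y-linked nuclei alone and -0.09 without nuclei with macrophage markers. Signs turned only for uncalled values: Ctsf in TG_PS19 against PS19 (-0.06 with library totals, -0.26 without PS19 replicate 2 against 0.30 without replicate 1, -0.11 with doublets kept, -0.07 thinned, -0.41 with Y-linked nuclei), Ctss there (0.03 without PS19 replicate 1 against -0.32 without replicate 2) and, in TG_PS19 against WT, Ctsa (0.10 without macrophage-marker nuclei), Ctss (-0.06 with library totals, -0.05 thinned, -0.02 with Y-linked nuclei, -0.01 without macrophage-marker nuclei) and Ctsz (-0.04 with library totals, -0.13 with Y-linked nuclei). The causes were not tested. A cathepsin at a few CPM, such as Ctsk in microglia, rested on 0 to 4 UMIs, and no change in it was detectable at this depth.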
